A study of Homo sapiens with 192 samples.

Results

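Genes named for the translation initiation and elongation factors, some of which modify or bind such factors, were described across 4 human colorectal cancer (CRC) cell lines. The members were the protein-coding genes whose symbol begins with EIF or EEF and a number, without the kinases of eIF2 (EIF2AK genes) and the 4E-binding proteins (EIF4EBP genes). They numbered 62 of the 58243 genes in the count files. HT29, LS513, HCT116 and LS174T are established colorectal carcinoma lines, and each was grown in 2D culture and in 3D culture without any treatment. The labels call the 3D condition layer growth, and how the 3D cultures for RNA were set up is not given in the sources used here. HCT116 was kept in McCoy medium and the other lines in DMEM, both with serum, so medium and line cannot be told apart where HCT116 is set against the other lines. Each of the 8 groups held 3 libraries of polyadenylated RNA. Nothing in the labels says that the 3 libraries came from separate cultures, so p-values measure only the spread between these libraries, which may be technical.

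Protein synthesis starts when eIF2 brings the initiator tRNA to the small ribosomal subunit together with eIF1, eIF1A, eIF3 and eIF5. The eIF4F complex, made of the cap-binding protein eIF4E, the scaffold eIF4G and the helicase eIF4A, recruits the mRNA, and eIF5B joins the large subunit at the start codon. eEF1A then delivers aminoacyl-tRNA, the eEF1B complex recharges eEF1A with GTP, and eEF2 moves the ribosome along the mRNA. Many elongation factor mRNAs and some initiation factor mRNAs begin with a C followed by a run of pyrimidines, the 5′ terminal oligopyrimidine (TOP) motif, through which mTOR signaling controls their translation. Ribosome production and protein synthesis are commonly raised in colorectal tumours.

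Library totals ranged from 18723942 to 34277421 counts, the lowest of them in HT29 2D replicate 3. A count of 3 then equalled between 0.0875 and 0.160 CPM, the count of a gene scaled to a common library total, which is the floor used here for detection, and floors cover counting error only. Levels are CPM after TMM scaling, and they compare libraries for a single gene. In LS174T grown in 3D, replicate 2 stood apart, since the members took 2.95% of its counts against 2.50% and 2.43% in replicates 1 and 3, and EEF1A1 alone took 0.831% against 0.590% and 0.566%. Calls of members in LS174T that were lost without it are named beside the gene. Among 9 markers of colorectal epithelium, KRT8 and KRT18 reached at least 1103 and 674 CPM in every library, whereas CDX2, VIL1, KRT20 and LGALS4 were under 1 CPM in at least 1 library. EPCAM, KRT19 and CDH1 reached at least 257, 212 and 18.0 CPM. KRT19, KRT20 and LGALS4 were called higher in 3D in all 4 lines, CDX2 in 3, CDH1 and VIL1 in 2 and EPCAM in 1. KRT18 was called lower in HT29, and KRT8 in no line. LGALS4 in HCT116 lay near the floor, and the part of these changes in the results was not tested. Of 6 markers of other cell types, CD3E and COL1A2 had no count in any library, PTPRC had at most 2 counts, PECAM1 at most 2.29 CPM and COL1A1 at most 21.8 CPM. CD68, a macrophage marker that epithelial lines also express, lay between 2.08 and 91.8 CPM and was higher in 3D in each of the 4 lines, and its part in the results was not tested.

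The sequence around the transcription start is shown first, because a pyrimidine stretch was found there in many members that were higher in 3D. RefSeq starts on GRCh38.p14 were found for 49 of the 62 members, and the window held 15 bases before the start and 15 bases from the start onward, read 5′ to 3′ on the transcribed strand only. The stretch searched was a C followed by at least 4 bases that are each C or T, with the longest one in capitals. The first 6 sequences are factors that were higher in 3D in at least 3 lines and whose stretch covers the start base, which is the 16th letter. The windows were chr6:73521018-73521047 on the minus strand for EEF1A1, chr19:3985449-3985478 on the minus strand for EEF2, chr12:53006441-53006470 on the plus strand for EIF4B, chr3:186783562-186783591 on the plus strand for EIF4A2, chr22:36529152-36529181 on the minus strand for EIF3D and chr11:7987322-7987351 on the plus strand for EIF3F.
EEF1A1: gtcgccgtgaacgttCTTTTTCgcaacggg
EEF2: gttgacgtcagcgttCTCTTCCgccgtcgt
EIF4B: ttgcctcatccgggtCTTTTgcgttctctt
EIF4A2: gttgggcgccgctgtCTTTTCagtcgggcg
EIF3D: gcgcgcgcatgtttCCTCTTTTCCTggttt
EIF3F: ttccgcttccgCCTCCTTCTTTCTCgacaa
The next 3 sequences are factors that were also higher in 3D in at least 3 lines but whose stretch does not cover the start base or is not in this window. EIF3L, the remaining factor of this kind, has no entry in the table used. Their windows were chr11:62573877-62573906 on the minus strand for EEF1G, chr2:206159594-206159623 on the plus strand for EEF1B2 and chr20:35284703-35284732 on the minus strand for EIF6.
EEF1G: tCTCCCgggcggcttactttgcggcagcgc
EEF1B2: gccggaagtggccccagcctcgaggccggg
EIF6: ttacttggtaagctggtgtgaggggaacct
The last 5 are the factors that were lower in 3D in at least 3 lines. EIF4G2 holds a stretch that begins at the base after the start base, and no stretch was found in the other 4. They came from chr14:103334222-103334251 on the plus strand for EIF5, chr2:99337374-99337403 on the plus strand for EIF5B, chr3:184314591-184314620 on the plus strand for EIF4G1, chr11:66002143-66002172 on the minus strand for EIF1AD and chr11:10807982-10808011 on the minus strand for EIF4G2.
EIF5: gcggcggcgttgttcagtcagagcgagaac
EIF5B: gcgcactgagaactcacaccatatgtgtcc
EIF4G1: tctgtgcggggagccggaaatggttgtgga
EIF1AD: cgagacagcgccggaagtacggttttcgga
EIF4G2: gaggttgtcggaagcaCTTCCCTaacttgc

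A stretch lay somewhere in the window in 26 of the 49 members (53.1%) and in 39.0% of all 35116 RefSeq promoters. It was present in 11 of 13 members that were higher in 3D on average over the lines and in 9 of 22 that were lower. A stretch that covered the start base was found in 9 of these 13 higher members, in 1 of the 22 lower members, in 2 of 13 members that did not pass the test (EIF4E1B was not tested) and in 7.87% of all promoters. The count of stretches at the start base was added after the windows had been seen, and these shares are descriptions without a test. A match describes the letters of the annotated start and not which start the cells used.

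Of the 62 members, 60 passed the filter on low counts and were tested. The 2 that did not were EIF4E1B, an oocyte-type cap-binding protein, which reached at most 0.201 CPM, and EIF3CL, a near-identical copy of EIF3C, which reached at most 0.0921 CPM. More than 3 counts in all 3 libraries of every group were seen for 56 members. Levels between genes were compared as TPM, which is CPM divided by the exonic length of the gene and rescaled to a common sum over protein-coding genes. EEF1A1, the main carrier of aminoacyl-tRNA, was the highest at a mean level of 2932 TPM with a range from 1815 to 4741 over the 24 libraries. EEF2, the translocase, followed at 2826 TPM with a range from 1673 to 4473, so these neighbours overlapped over nearly the whole range. EEF1G, a subunit of the eEF1B complex, had 1721 TPM (range 1108 to 2625), EIF5A, the hypusinated factor that relieves stalled ribosomes, had 1223 TPM (range 844 to 1874), and EEF1B2, the nucleotide exchange subunit, had 1096 TPM (range 821.0 to 1984). Per length, 4 of the 5 highest members were thus elongation factors. With the longest annotated transcript as the length, EIF4A1 took the third rank at 1780 TPM and EEF1G the sixth at 1341 TPM.

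**Figure D1:**
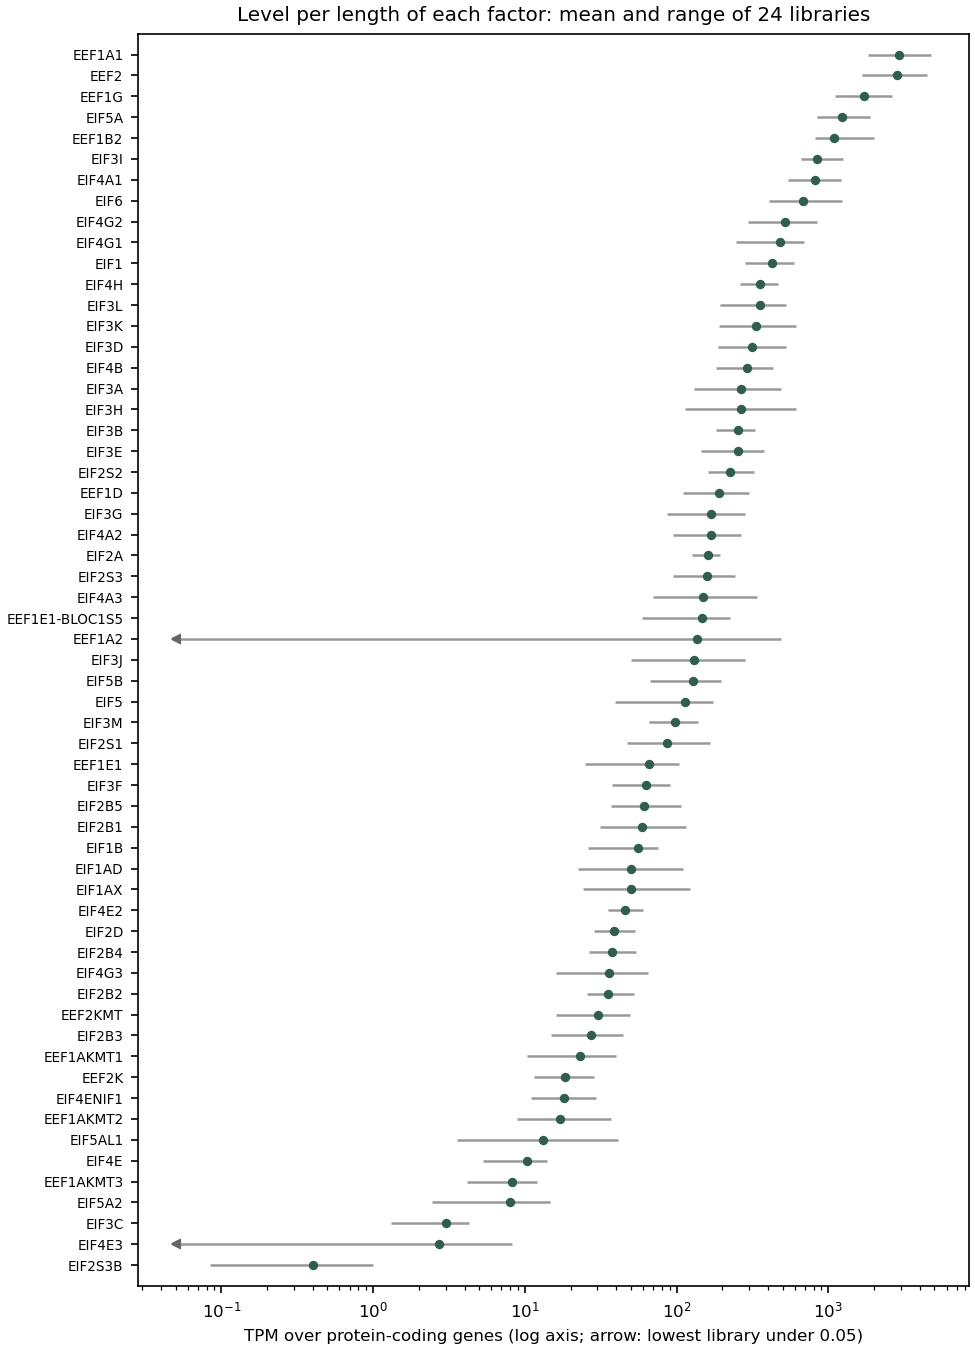
Mean (point) and range (line) of the level of the members over the 24 libraries, in TPM over protein-coding genes on a log axis. EIF3CL, EIF4E1B and a Y-linked member are left out. EEF1A1 and EEF2 lead at 2932 and 2826 TPM, and most members lie between 10 and 1000 TPM. EEF1A2 and EIF4E3 range from 0 TPM to 487 and 8.26 TPM, with an arrow where 0 cannot be drawn on the log axis.

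Some members differed in level by line far more than by growth. EEF1A2, the muscle and brain form of eEF1A, had 159.8, 162 and 196 CPM in 2D and 175, 146 and 169 CPM in 3D in HT29, and 485, 424 and 603 CPM in 2D and 644, 669 and 562 CPM in 3D in HCT116. It had no count in any of the 6 libraries of LS513 and at most 0.171 CPM in LS174T. EIF4E3, a cap-binding protein of the eIF4E family, had 20.7, 24.1 and 22.3 CPM in 2D and 27.4, 25.8 and 27.1 CPM in 3D in LS513, and 7.76, 7.71 and 8.44 CPM in 2D and 9.01, 9.70 and 9.83 CPM in 3D in HCT116. It stayed at or under 0.652 CPM in LS174T and at or under 0.164 CPM in HT29, close to the floor. EIF3H, an eIF3 subunit, had a mean of 977 ± 100.2 CPM in HT29 (SD, n = 6), 428 ± 14.4 CPM in HCT116, 254 ± 59.4 CPM in LS174T and 235 ± 29.8 CPM in LS513, and the values of LS174T and LS513 overlapped. The SDs over 6 libraries pool 2D and 3D, so they include the growth effect. EIF5AL1, a gene close in sequence to EIF5A, had 32.4 ± 5.98 CPM in HCT116 (SD, n = 6) and means of 10.5 CPM or less in the other lines. A difference in level between lines passed the test for 60 of 60 members, but it did so for 95.7% of all genes tested as well, so this count says nothing particular about the members.

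Counts assigned to some members may be shared with a copy, since reads aligned more than once were removed before counting. EIF3C, the eIF3 subunit that is duplicated as EIF3CL, showed a mean of only 3.03 TPM, against 254 TPM for the subunit EIF3B. EIF5AL1, which is close in sequence to EIF5A, had a mean of 13.2 TPM, against 1223 TPM for EIF5A, so its calls carry the same limit. The gene annotation used (GENCODE 29) holds 39 genes named as EEF1A1 pseudogenes and 13 named as EIF4A1 pseudogenes. EEF1G shares 99.9% of its exonic bases with an overlapping gene on the same strand (AP002990.1), EIF4A1 shares 48.6% with genes that include the readthrough gene SENP3-EIF4A1, and EIF3L shares 41.1% with AL022311.1. How reads over such bases were assigned is not given in the sources used here, so the levels of these genes are uncertain.

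The comparison of 3D with 2D asked whether growth condition changed the factors in each line. The test was the quasi-likelihood test of edgeR on all 24 libraries, with Benjamini-Hochberg adjustment over 19387 genes, and a gene was called at an adjusted p under 0.05. In HT29, 8 members were higher and 19 were lower in 3D, where 21.1% and 19.6% of all genes tested were called in these directions. In LS513, 11 members were higher and 1 was lower, against 13.7% and 9.90% of all genes. In HCT116, 8 members were higher and 14 were lower, against 16.8% and 12.3%. In LS174T, 17 members were higher and 7 were lower, against 13.1% and 9.15%. In terms of single libraries, the groups did not overlap for 14 members higher and 21 lower in HT29 (27.3% and 25.6% of all genes), 19 and 15 in LS513 (23.0% and 20.0%), 12 and 20 in HCT116 (22.8% and 17.6%), and 19 and 11 in LS174T (20.9% and 17.6%). The median log2 fold change of the members was -0.12 in HT29, -0.11 in HCT116, -0.017 in LS513 and 0.024 in LS174T, where that of all genes lay between 0 and 0.016. In these bulk libraries a lower level can stand for fewer cells that express a gene or for less of its RNA per cell, and these cannot be told apart.

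The LS174T and LS513 counts rested on few libraries. Without replicate 2 of LS174T grown in 3D, 12 members were higher and 3 were lower in that line. Fitted on its own 6 libraries, LS174T left 1 in each direction, EIF3H higher and EIF4G1 lower. Every other LS174T call of a member was lost in that fit, also where this is not repeated beside the gene. Without replicate 2 of LS513 grown in 3D, 2 members were higher and 0 were lower in LS513, and without replicate 3 the lower count was 8. Scaled by library totals alone, LS513 gave 5 higher and 18 lower, and HCT116 gave 6 higher and 27 lower.

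**Figure D2:**
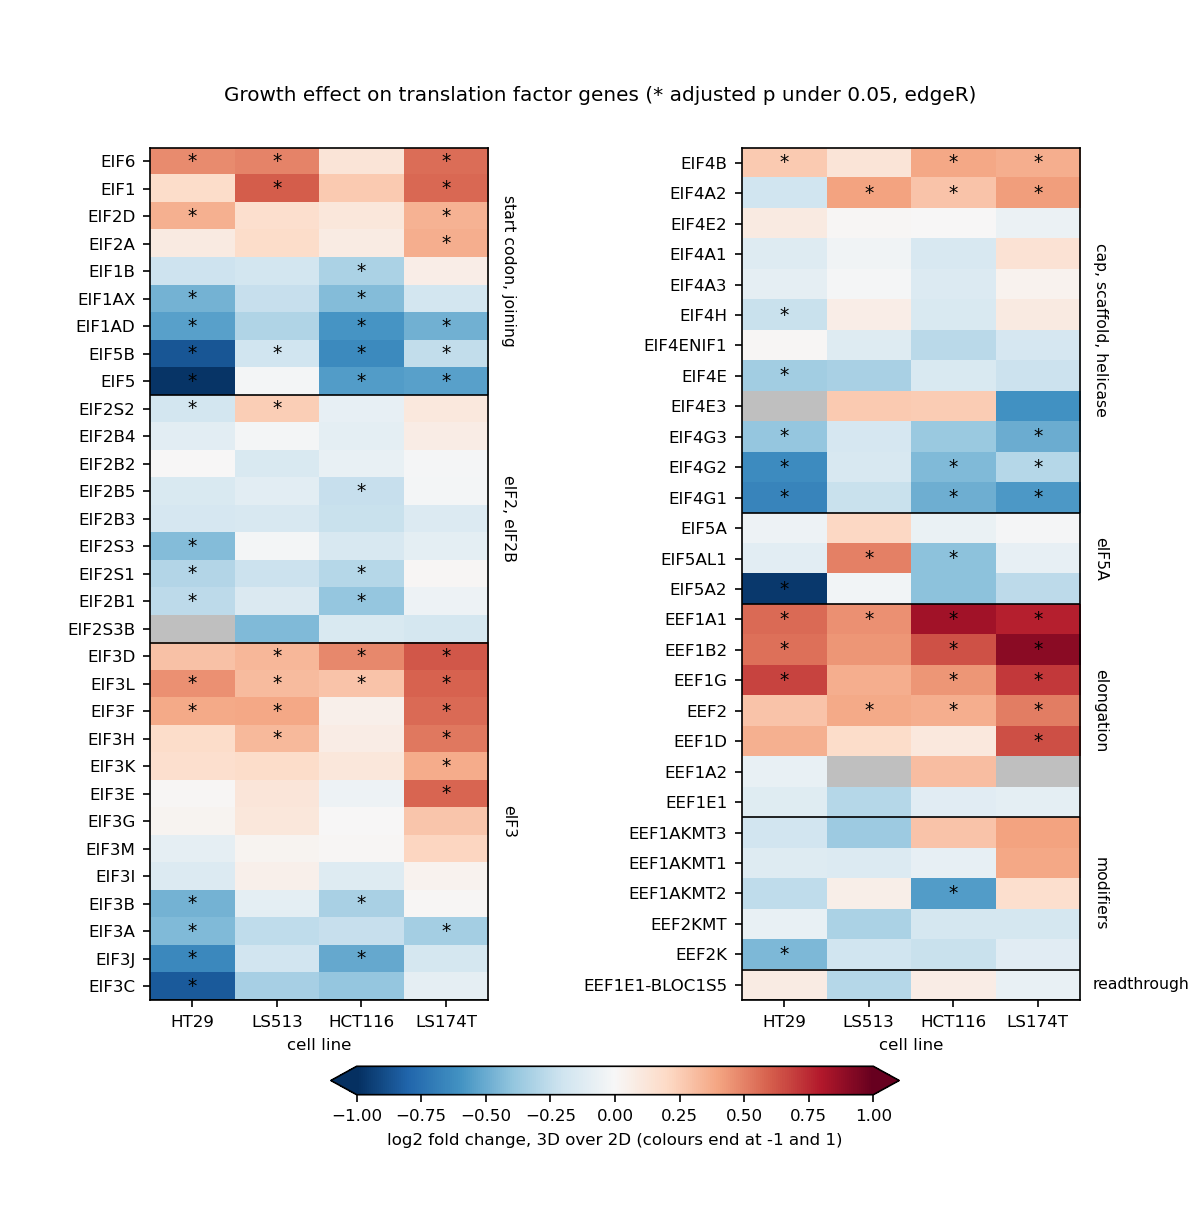
Log2 fold change of 3D over 2D (colour, ending at -1 and 1) for the members tested in each of the 4 lines, grouped by role, with a star at an adjusted p under 0.05 (edgeR). Grey cells are lines in which neither group had more than 3 counts in all 3 libraries. A Y-linked member is left out. The elongation factors EEF1A1, EEF1B2, EEF1G and EEF2 form a red block, and EIF5B, EIF4G1 and EIF4G2 are blue throughout.

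In the same direction in at least 3 lines, 10 members were higher in 3D and 5 were lower, where 8.38% and 6.32% of all genes tested met this criterion. The 10 were EEF1A1, EEF1B2, EEF1G, EEF2, EIF3D, EIF3F, EIF3L, EIF4B, EIF4A2 and EIF6, and the 5 were EIF5B, EIF5, EIF1AD, EIF4G1 and EIF4G2. In all 4 lines EEF1A1 and EIF3L were higher and EIF5B was lower, where 3.14% and 2.46% of all genes did so. For the mean effect over the lines, from the same libraries, 17 members were higher and 24 were lower, against 26.6% and 23.9% of all genes. Of these 41 calls, 34 were made under each of the 28 alternatives run for the mean effect.

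Of 7 elongation factors, 3 rose in HT29 (21.1% of all genes), 4 in HCT116 (16.8%), 2 in LS513 (13.7%) and 5 in LS174T (13.1%). None was called lower in a single line. For the mean effect 5 rose (26.6%) and 1 fell (23.9%). The 1 that fell was EEF1E1, a component of the tRNA synthetase complex that was named after its values were seen, at -0.16 (SE 0.053, adjusted p = 0.0174). EEF1A1 (ENSG00000156508) had 4162, 3851 and 3733 CPM in 2D and 5751, 5928 and 5741 CPM in 3D in HT29, and 3807, 3793 and 4392 CPM in 2D and 6868, 7047 and 7547 CPM in 3D in HCT116. It had 3026, 2990 and 3430 CPM in 2D and 4298, 4606 and 4032 CPM in 3D in LS513, and 3790, 3813 and 3971 CPM in 2D and 5662, 8905 and 5325 CPM in 3D in LS174T. In each line every 3D library was above every 2D library, and replicate 2 of LS174T grown in 3D was the highest of all. The log2 fold changes were 0.57 (SE 0.13, adjusted p = 0.00158) in HT29, 0.84 (SE 0.13, adjusted p = 6.31e-05) in HCT116, 0.45 (SE 0.13, adjusted p = 0.0146) in LS513 and 0.78 (SE 0.13, adjusted p = 0.000245) in LS174T, so the level was between 1.37 and 1.79 times as high in 3D. EEF1A1 kept its call under the 12 alternatives run for HT29 and the 12 run for HCT116, whereas the LS513 call was lost without 2D replicate 1, 2D replicate 2 or 3D replicate 2. In LS174T the call was lost in the fit of its 6 libraries.

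EEF2 (ENSG00000167658) rose in LS513, HCT116 and LS174T. It had 3815, 3418 and 3866 CPM in 2D and 4556, 5045 and 4700 CPM in 3D in HCT116, and 3192, 2867 and 2934 CPM in 2D and 3854, 5270 and 3674 CPM in 3D in LS174T, with log2 fold changes of 0.37 (SE 0.11, adjusted p = 0.0180) and 0.51 (SE 0.11, adjusted p = 0.00300). In LS513 it had 2007, 2057 and 2220 CPM in 2D and 2767, 2853 and 2548 CPM in 3D, a log2 fold change of 0.38 (SE 0.11, adjusted p = 0.0173). The LS513 call was lost by library totals alone or without 2D replicate 1, 2D replicate 2, 3D replicate 1 or 3D replicate 2, and the HCT116 call was lost without 2D replicate 2 or 3D replicate 2. In HT29 the libraries did not overlap either, with 2001, 1902 and 2070 CPM in 2D and 2637, 2122 and 2504 CPM in 3D, but the log2 fold change of 0.28 missed the threshold (adjusted p = 0.0504).

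EEF1G and EEF1B2, subunits of the eEF1B exchange complex, were called higher in 3 lines each. EEF1G (ENSG00000254772) had 1078, 992 and 995 CPM in 2D and 1796, 1495 and 1605 CPM in 3D in HT29, and 1091, 994 and 1026 CPM in 2D and 1496, 2252 and 1328 CPM in 3D in LS174T, with log2 fold changes of 0.68 (SE 0.14, adjusted p = 0.000529) and 0.71 (SE 0.14, adjusted p = 0.00106). It was also called higher in HCT116, at 0.44 (adjusted p = 0.0189), where the call was lost without 2D replicate 1, 2D replicate 2 or 3D replicate 3, and its value in LS513 was 0.36 (adjusted p = 0.0610). EEF1B2 (ENSG00000114942) had 467, 467 and 418 CPM in 2D and 644, 680 and 660.5 CPM in 3D in HT29, a log2 fold change of 0.55 (SE 0.18, adjusted p = 0.0186). In LS174T EEF1B2 had 379.8, 364 and 376 CPM in 2D and 563, 1023 and 506 CPM in 3D, where replicate 2 lay far above the other 3D libraries, and the log2 fold change was 0.90 (SE 0.18, adjusted p = 0.00138). Its values were 0.63 (adjusted p = 0.0115) in HCT116 and 0.44 (adjusted p = 0.0863) in LS513, and its HCT116 call was lost without 2D replicate 2 or 3D replicate 3. Its HT29 call was lost without 2D replicate 3. EEF1D, another exchange subunit, had 407, 341 and 345 CPM in 2D and 436, 887 and 389 CPM in 3D in LS174T, a log2 fold change of 0.65 (SE 0.19, adjusted p = 0.0201) with overlap between the groups, and the call was lost in the fit of its 6 libraries or without 2D replicate 2, 2D replicate 3 or 3D replicate 2. EEF1A2, in the lines that express it, had log2 fold changes of -0.075 (adjusted p = 0.762) in HT29 and 0.31 (adjusted p = 0.155) in HCT116.

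**Figure D3:**
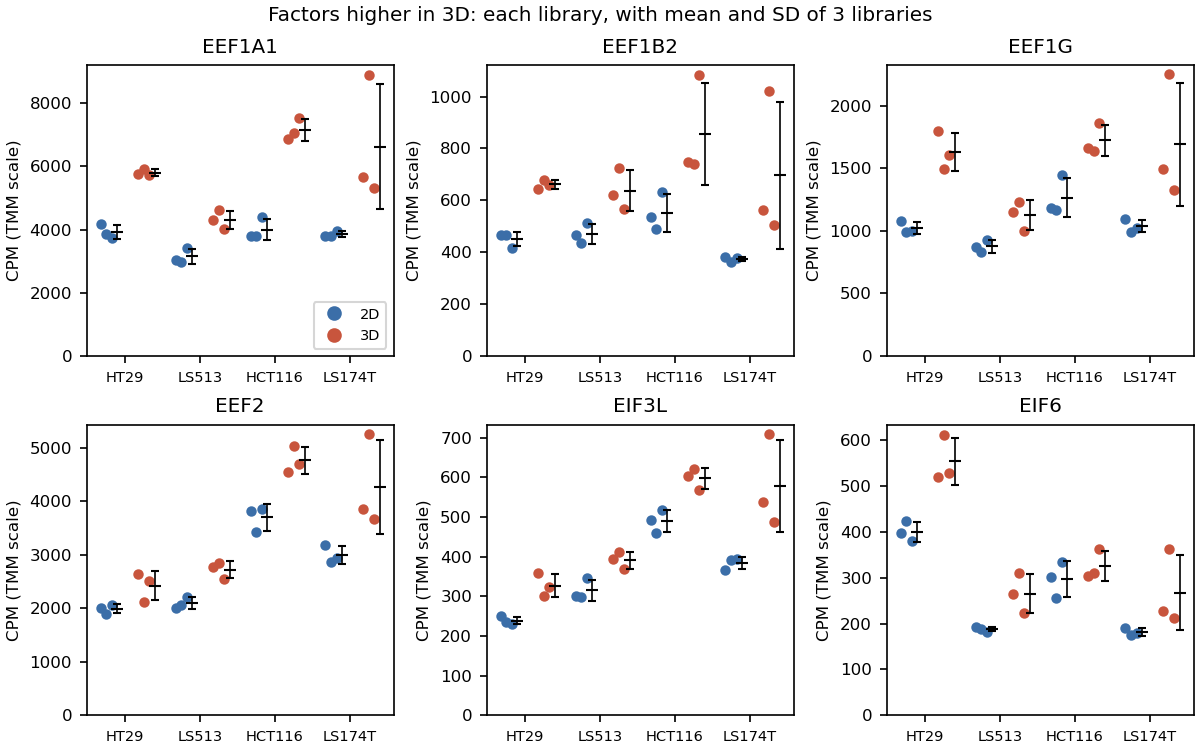
Level in CPM on the TMM scale of 6 members called higher in 3D in at least 3 lines, with 1 point for each library (blue 2D, red 3D) and the mean and SD of the 3 libraries of each group. For EEF1A1 every red point of a line lies above its blue points, and the highest red point of LS174T is replicate 2, at 8905 CPM.

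The subunits of eIF3, the large initiation complex that binds the small ribosomal subunit, were called in both directions. Of 13 tested, 2 rose and 4 fell in HT29 (21.1% and 19.6% of all genes), and 4 rose and 0 fell in LS513 (13.7% and 9.9%). In HCT116 2 rose and 2 fell (16.8% and 12.3%), and in LS174T 6 rose and 1 fell (13.1% and 9.15%). By library totals alone, 0 rose and 4 fell in LS513. EIF3L (ENSG00000100129) had 249, 235 and 231 CPM in 2D and 358, 300.2 and 322 CPM in 3D in HT29, and 366, 392 and 394 CPM in 2D and 537, 709 and 487 CPM in 3D in LS174T. No 3D library of these lines overlapped the 2D libraries, and the log2 fold changes were 0.46 (SE 0.11, adjusted p = 0.00162) and 0.59 (SE 0.11, adjusted p = 0.000460). EIF3L lost its LS174T call in the fit of the 6 LS174T libraries. Its smaller log2 fold changes of 0.31 (adjusted p = 0.0351) in LS513 and 0.29 (adjusted p = 0.0453) in HCT116 were less stable, since the HCT116 call was lost when any 1 of the 6 libraries was left out and the LS513 call was lost without the filter, by library totals alone or without 2D replicate 1, 2D replicate 2, 3D replicate 1 or 3D replicate 2. EIF3D (ENSG00000100353), a cap-binding subunit, had 406, 377 and 490 CPM in 2D and 592, 601 and 580 CPM in 3D in HCT116, and 235, 224 and 241 CPM in 2D and 321, 457 and 296 CPM in 3D in LS174T, with log2 fold changes of 0.48 (SE 0.12, adjusted p = 0.00426) and 0.62 (SE 0.12, adjusted p = 0.000919). It was called at 0.33 (adjusted p = 0.0451) in LS513, a call lost by library totals alone or without 2D replicate 1, 2D replicate 2, 2D replicate 3, 3D replicate 1 or 3D replicate 2, and missed the threshold in HT29, at 0.29 (adjusted p = 0.0546).

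EIF3F (ENSG00000175390), another eIF3 subunit, rose in HT29, LS513 and LS174T. It had 152, 155 and 148 CPM in 2D and 225, 185 and 182 CPM in 3D in HT29, and 99.8, 104 and 116 CPM in 2D and 146, 148 and 125 CPM in 3D in LS513, with log2 fold changes of 0.38 (adjusted p = 0.0116) and 0.39 (adjusted p = 0.0164), and the value in HCT116 was 0.053 (adjusted p = 0.784). The LS513 call was lost by library totals alone or without 2D replicate 1, 2D replicate 2, 3D replicate 1 or 3D replicate 2, and the HT29 call was lost without 3D replicate 1. EIF3E had 284, 322 and 328 CPM in 2D and 399, 578 and 424 CPM in 3D in LS174T, a log2 fold change of 0.58 (SE 0.10, adjusted p = 0.000313), while its values in the other lines lay between -0.054 and 0.12 and were not called. Replicate 2 of LS174T grown in 3D lay well above the other libraries, and without it the log2 fold change was 0.41 and remained called. EIF3H was called higher in LS513, at 0.32 (adjusted p = 0.0136), a call lost by library totals alone or without 2D replicate 1, 2D replicate 2 or 3D replicate 2, and in LS174T, at 0.53 (adjusted p = 0.000369). In the opposite direction, the subunit EIF3B had 775, 834 and 748 CPM in 2D and 599, 540.5 and 560 CPM in 3D in HT29, a log2 fold change of -0.47 (SE 0.081, adjusted p = 7.95e-05), and it fell in HCT116 too, at -0.33 (adjusted p = 0.00400). Its value in LS174T was 0.0089 (adjusted p = 0.979). EIF3C, at few counts, had 5.28, 6.81 and 6.52 CPM in 2D and 3.62, 2.80 and 3.95 CPM in 3D in HT29, a log2 fold change of -0.84 (SE 0.16, adjusted p = 0.000243), and it was not called in the other lines. Named after their values were seen, EIF3A, the largest subunit, was called lower in HT29 and LS174T, at -0.44 (adjusted p = 0.00201) and -0.34 (adjusted p = 0.0248), EIF3J, a loosely bound subunit, in HT29 and HCT116, at -0.65 (adjusted p = 2.78e-05) and -0.51 (adjusted p = 0.000595), and EIF3K higher in LS174T, at 0.37 (adjusted p = 0.0279). The LS174T call of EIF3A was lost in the fit of its 6 libraries or without 2D replicate 1, 2D replicate 3 or 3D replicate 2, and that of EIF3K was lost by library totals alone, in the fit of its 6 libraries or without 2D replicate 1, 2D replicate 2, 2D replicate 3 or 3D replicate 2.

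Start codon recognition and subunit joining were counted as 10 genes, which include the eIF1A domain protein EIF1AD. Of these, 2 rose and 4 fell in HT29 (21.1% and 19.6% of all genes). In LS513 2 rose and 1 fell (13.7% and 9.9%). In HCT116 0 rose and 5 fell (16.8% and 12.3%), and in LS174T 4 rose and 3 fell (13.1% and 9.15%). EIF5B (ENSG00000158417), the GTPase that joins the subunits, had 304, 326 and 287 CPM in 2D and 178, 159.6 and 168 CPM in 3D in HT29, and 369.7, 347 and 346 CPM in 2D and 219, 236 and 229.8 CPM in 3D in HCT116. These groups lay far apart, with log2 fold changes of -0.86 (SE 0.072, adjusted p = 8.38e-09) and -0.63 (SE 0.072, adjusted p = 7.72e-07). In LS513 it had 352, 354 and 323 CPM in 2D and 298, 284 and 315 CPM in 3D, and in LS174T it had 274, 266 and 278 CPM in 2D and 229, 237 and 225 CPM in 3D. The 3D libraries were again below all 2D libraries, by log2 fold changes of -0.20 (SE 0.071, adjusted p = 0.0464) in LS513 and -0.24 (SE 0.072, adjusted p = 0.0181) in LS174T. The LS513 call was lost without the filter, with the size factors of DESeq2 or without 2D replicate 1, 2D replicate 2, 3D replicate 1 or 3D replicate 2, and the LS174T call was lost without the filter, in the fit of its 6 libraries or without 2D replicate 1 or 2D replicate 3.

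EIF5 (ENSG00000100664), which makes eIF2 hydrolyse its GTP at the start codon, had 252, 262 and 250.4 CPM in 2D and 98.3, 152 and 138 CPM in 3D in HT29, a log2 fold change of -0.98 (SE 0.16, adjusted p = 6.22e-05). It had 352, 331 and 359 CPM in 2D and 225, 226 and 254 CPM in 3D in HCT116, a log2 fold change of -0.56 (SE 0.16, adjusted p = 0.0113), and 299, 313 and 328 CPM in 2D and 199.8, 154 and 293 CPM in 3D in LS174T, a log2 fold change of -0.54 (SE 0.16, adjusted p = 0.0203). The LS174T call was lost in the fit of its 6 libraries or without 2D replicate 2, 2D replicate 3, 3D replicate 1 or 3D replicate 2. In LS513 the groups overlapped, with 308, 312 and 288 CPM in 2D and 275, 268 and 350.3 CPM in 3D. EIF1AD (ENSG00000175376), an eIF1A domain protein, fell in HT29, HCT116 and LS174T, with 88.6, 77.6 and 70.7 CPM in 2D and 54.0, 51.6 and 51.9 CPM in 3D in HCT116 and log2 fold changes of -0.54 (adjusted p = 0.000943), -0.59 (adjusted p = 0.000588) and -0.48 (adjusted p = 0.00593). In LS513 its 3D libraries were also below the 2D libraries, but the log2 fold change of -0.30 missed the threshold (adjusted p = 0.0665).

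EIF6 (ENSG00000242372), which keeps the large subunit from joining too early, rose in HT29, LS513 and LS174T. It had 396, 423 and 380.4 CPM in 2D and 519.9, 612 and 529 CPM in 3D in HT29, and 192, 189 and 182 CPM in 2D and 264, 309.5 and 223 CPM in 3D in LS513, with log2 fold changes of 0.47 (SE 0.15, adjusted p = 0.0148) and 0.50 (SE 0.15, adjusted p = 0.0172). In LS174T it had 190.5, 175 and 179.6 CPM in 2D and 227, 362 and 213 CPM in 3D, a log2 fold change of 0.56 (SE 0.15, adjusted p = 0.0110) that was lost in the fit of its 6 libraries or without 3D replicate 2, and the LS513 call was lost without 2D replicate 2, 2D replicate 3 or 3D replicate 2. EIF1, which guards the choice of start codon, had 294, 283 and 291 CPM in 2D and 437, 536 and 345 CPM in 3D in LS513, and it rose there and in LS174T, at log2 fold changes of 0.60 (adjusted p = 0.00552) and 0.57 (adjusted p = 0.0104). The LS513 call was lost without 3D replicate 2, and the LS174T call was lost in the fit of its 6 libraries or without 3D replicate 2. Its paralog EIF1B was called in HCT116 and in no other line, where it had 34.7, 34.0 and 34.4 CPM in 2D and 29.3, 27.1 and 26.3 CPM in 3D, a log2 fold change of -0.32 (SE 0.11, adjusted p = 0.0257) that was lost without the filter or without 2D replicate 1, 2D replicate 2, 3D replicate 2 or 3D replicate 3. Named after their values were seen, EIF2D, a factor that can deliver tRNA without GTP, was called higher in HT29 and LS174T, at 0.35 (adjusted p = 0.0174) and 0.35 (adjusted p = 0.0334), EIF2A higher in LS174T, at 0.36 (adjusted p = 0.00329), and EIF1AX, an eIF1A gene, lower in HT29 and HCT116, at -0.47 (adjusted p = 0.00289) and -0.43 (adjusted p = 0.00830). The LS174T call of EIF2D was lost by library totals alone, in the fit of its 6 libraries or without 2D replicate 1, 2D replicate 2, 2D replicate 3 or 3D replicate 2, and that of EIF2A was lost in the fit of its 6 libraries.

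Calls among the subunits of eIF2 and of its exchange factor eIF2B were mostly negative. Of 9 tested, 0 rose and 4 fell in HT29 (21.1% and 19.6% of all genes), and 1 rose and 0 fell in LS513 (13.7% and 9.9%). In HCT116 0 rose and 3 fell (16.8% and 12.3%), and in LS174T 0 rose and 0 fell (13.1% and 9.15%). For the mean effect 0 rose and 5 fell (26.6% and 23.9%). The median log2 fold change of the group was -0.19 in HT29, -0.16 in HCT116, -0.15 in LS513 and -0.018 in LS174T. EIF2S2, the beta subunit of eIF2, was the member that rose in LS513, where it had 164, 159 and 153 CPM in 2D and 188, 192 and 183 CPM in 3D, a log2 fold change of 0.24 (SE 0.070, adjusted p = 0.0141). In HT29 EIF2S2 fell, with 241, 229 and 222 CPM in 2D and 205, 202 and 201 CPM in 3D and a log2 fold change of -0.19 (SE 0.070, adjusted p = 0.0365). The LS513 call was lost without the filter, by library totals alone or without 2D replicate 3, 3D replicate 1 or 3D replicate 2, and the HT29 call was lost without the filter, with the size factors of DESeq2 or without any 1 of its 6 libraries. The other calls, named after their values were seen, were EIF2S1, the alpha subunit that carries the regulatory phosphorylation site, at -0.30 (adjusted p = 0.00803) in HT29 and -0.29 (adjusted p = 0.0138) in HCT116, EIF2S3, the gamma subunit, at -0.43 (adjusted p = 0.000428) in HT29, EIF2B1, a regulatory subunit of eIF2B, at -0.27 (adjusted p = 0.00652) in HT29 and -0.38 (adjusted p = 0.000460) in HCT116, and EIF2B5, its catalytic subunit, at -0.23 (adjusted p = 0.0300) in HCT116. The EIF2S1 call was lost without the filter or without 2D replicate 2 or 3D replicate 1 in HT29 and lost without 3D replicate 1 in HCT116. The HT29 call of EIF2B1 was lost without the filter or without 2D replicate 2, 3D replicate 3 or 3D replicate 4, and the HCT116 call of EIF2B5 was lost without the filter or without 2D replicate 1, 2D replicate 2, 3D replicate 1 or 3D replicate 2. For the mean effect these 4 fell together with EIF2B3, another subunit of eIF2B, at -0.17 (SE 0.057, adjusted p = 0.0136).

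Of 12 tested factors of cap binding, scaffold and helicase, 1 rose and 5 fell in HT29 (21.1% and 19.6% of all genes). In LS513 1 rose and 0 fell (13.7% and 9.9%). In HCT116 2 rose and 2 fell (16.8% and 12.3%), and in LS174T 2 rose and 3 fell (13.1% and 9.15%). EIF4G1 (ENSG00000114867), the main scaffold of eIF4F, had 1048, 1134 and 1056 CPM in 2D and 686, 649 and 710.2 CPM in 3D in HT29, a log2 fold change of -0.66 (SE 0.10, adjusted p = 1.19e-05). It had 1257, 1143 and 1219 CPM in 2D and 785, 914 and 876 CPM in 3D in HCT116, a log2 fold change of -0.49 (SE 0.10, adjusted p = 0.000506), and 1235, 1050 and 1159 CPM in 2D and 846, 642 and 829 CPM in 3D in LS174T, a log2 fold change of -0.57 (SE 0.10, adjusted p = 0.000206). These 3 calls held under every alternative run for these lines. In LS513 the 3D libraries were also below the 2D libraries, with 1571, 1574 and 1476 CPM in 2D and 1345, 1269 and 1353 CPM in 3D, and the log2 fold change of -0.22 missed the threshold. EIF4G2 (ENSG00000110321), a related scaffold that does not bind eIF4E, fell by log2 fold changes of -0.63 (adjusted p = 6.17e-05) in HT29, -0.44 (adjusted p = 0.00277) in HCT116 and -0.29 (adjusted p = 0.0499) in LS174T. In HT29 it had 1175, 1360 and 1229 CPM in 2D and 789.8, 781 and 864 CPM in 3D. Its LS174T call was lost without the filter, in the fit of its 6 libraries or without 2D replicate 1, 2D replicate 2, 2D replicate 3, 3D replicate 1 or 3D replicate 2. EIF4G3, the remaining scaffold, was called lower in HT29, at -0.39 (adjusted p = 0.0340), and in LS174T, at -0.50 (adjusted p = 0.0163). The HT29 call was lost in DESeq2, by library totals alone, with the size factors of DESeq2 or without any 1 of its 6 libraries, and the LS174T call was lost in the fit of its 6 libraries or without 2D replicate 3 or 3D replicate 2.

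EIF4B (ENSG00000063046), which stimulates the helicase eIF4A, rose in HT29, HCT116 and LS174T. It had 539, 527 and 554 CPM in 2D and 643, 748 and 726 CPM in 3D in HCT116, and 459, 481 and 500.4 CPM in 2D and 609, 607 and 638 CPM in 3D in LS174T, with log2 fold changes of 0.39 (SE 0.082, adjusted p = 0.00114) and 0.36 (SE 0.082, adjusted p = 0.00324), and replicate 2 of LS174T grown in 3D did not stand out for this gene. In HT29 the log2 fold change of EIF4B was 0.26 (adjusted p = 0.0130). This HT29 call was lost with the replicate numbers fitted as a block, and the LS174T call of EIF4B in the fit of its 6 libraries. The helicase paralogs differed. EIF4A2 (ENSG00000156976) had 355, 339 and 382 CPM in 2D and 469, 461 and 495 CPM in 3D in LS513, a log2 fold change of 0.40 (SE 0.094, adjusted p = 0.00277), and it rose in HCT116, at 0.28 (adjusted p = 0.0265), a call lost without the filter, by library totals alone, in the fit of its 6 libraries or without 2D replicate 1, 2D replicate 2, 3D replicate 1 or 3D replicate 2, and in LS174T, at 0.42 (adjusted p = 0.00324). In HT29 it went the other way, with 236, 224 and 211 CPM in 2D and 204, 177 and 203 CPM in 3D, at a log2 fold change of -0.20 that missed the threshold (adjusted p = 0.0963). EIF4A1, the more abundant helicase, was called in none of the 4 lines, and its log2 fold changes lay between -0.16 and 0.14. The cap-binding protein EIF4E fell in HT29, with 40.2, 44.8 and 47.4 CPM in 2D and 32.2, 32.3 and 39.7 CPM in 3D and a log2 fold change of -0.34 (SE 0.12, adjusted p = 0.0280) that was lost without the filter, by library totals alone or without 2D replicate 2, 2D replicate 3, 3D replicate 1 or 3D replicate 3, and had values of -0.32, -0.15 and -0.21 in LS513, HCT116 and LS174T, none of which was called. EIF4E3 was called in no line, and its log2 fold change was 0.26 in LS513 and 0.26 in HCT116. Named after its values were seen, EIF4H, a cofactor of eIF4A, was called lower in HT29, at -0.22 (adjusted p = 0.0146), a call lost without the filter or without 2D replicate 1, 2D replicate 2, 2D replicate 3, 3D replicate 3 or 3D replicate 4.

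**Figure D4:**
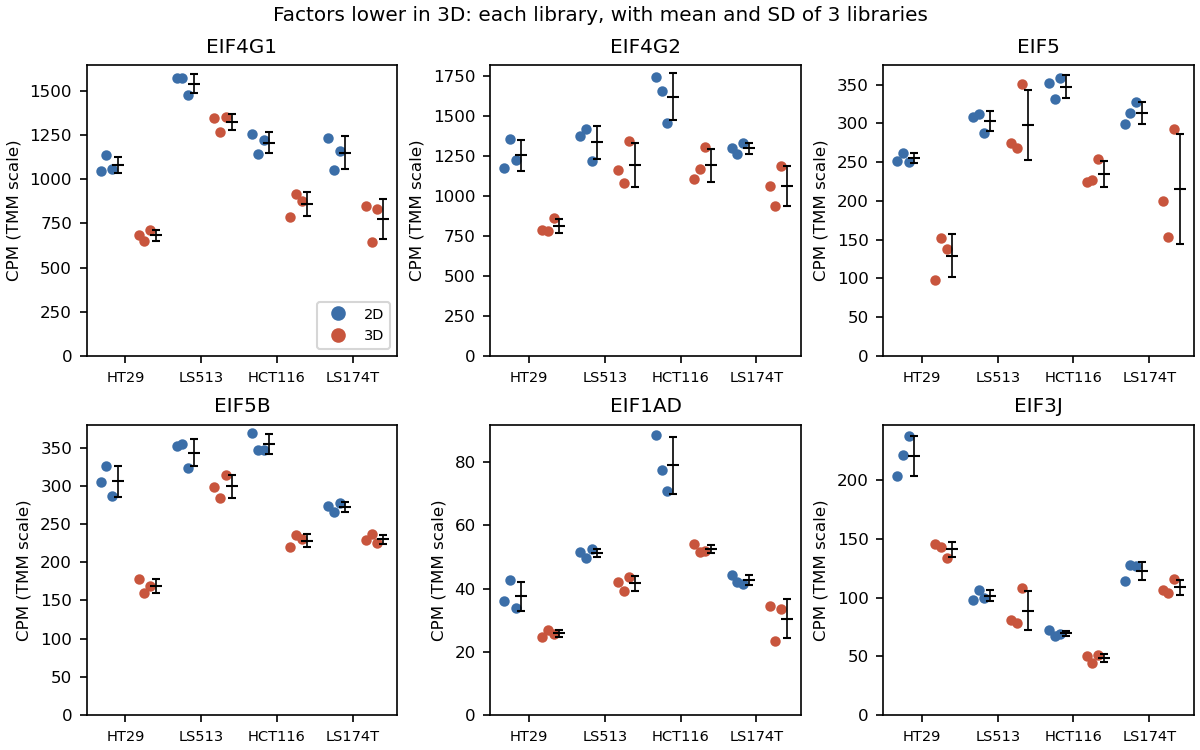
Level in CPM on the TMM scale of 6 members that were lower in 3D on average, with 1 point for each library (blue 2D, red 3D) and the mean and SD of the 3 libraries of each group. EIF4G1, EIF5B and EIF1AD lie lower in 3D without overlap in each of the 4 lines, while EIF5 overlaps in LS513, EIF4G2 in LS513 and EIF3J in LS513 and LS174T. EIF3J was chosen for this plot after its values were seen.

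EIF5A was called in no line, with log2 fold changes between -0.064 and 0.20 and adjusted p of at least 0.146. Its paralog EIF5A2 had 8.06, 10.2 and 10.7 CPM in 2D and 4.50, 6.26 and 4.03 CPM in 3D in HT29, a log2 fold change of -0.97 (SE 0.17, adjusted p = 0.000150), and values of -0.41 (adjusted p = 0.0647) in HCT116 and -0.26 (adjusted p = 0.264) in LS174T. EIF5AL1 rose in LS513, with 5.15, 5.53 and 5.48 CPM in 2D and 7.71, 7.71 and 7.55 CPM in 3D and a log2 fold change of 0.51 (SE 0.13, adjusted p = 0.00728), and fell in HCT116, with 33.1, 37.04 and 40.7 CPM in 2D and 25.5, 26.1 and 31.7 CPM in 3D and a log2 fold change of -0.41 (SE 0.12, adjusted p = 0.0135) that was lost without 3D replicate 1 or 3D replicate 2. Of the 5 genes for the kinase of eEF2 and for methyltransferases of eEF1A and eEF2, 0 rose and 1 fell in HT29 (21.1% and 19.6% of all genes). In HCT116 0 rose and 1 fell (16.8% and 12.3%), and none was called in LS513 and LS174T. Named after their values were seen, these were EEF2K, the kinase that inhibits eEF2, at -0.45 (adjusted p = 0.00250) in HT29, a call lost without 3D replicate 3, and EEF1AKMT2, a methyltransferase of eEF1A, at -0.56 (adjusted p = 0.00129) in HCT116.

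The 9 factors known as classical TOP mRNAs (EEF1A1, EEF1B2, EEF1D, EEF1G, EEF2, EIF3E, EIF3F, EIF3H and EIF4B) were counted together, a list chosen with earlier results of these data known. Of these, 5 rose in HT29, 5 in HCT116, 4 in LS513 and 9 in LS174T, and none fell in any line. Of all genes tested, 21.1%, 16.8%, 13.7% and 13.1% were called higher in these lines, in the same order. The median log2 fold change of the 9 was 0.35 in HT29, 0.37 in HCT116, 0.36 in LS513 and 0.58 in LS174T, and 9 of 9 rose for the mean effect. The log2 fold change was above 0 for 9 of them in HT29, LS513 and LS174T and for 8 in HCT116, and for 9 in HT29 and LS174T, 7 in LS513 and 6 in HCT116 when the libraries were scaled by their totals alone, which left 1 of 9 called in LS513. In LS174T 8 of 9 were called without replicate 2 of 3D and 1 of 9 in the fit of its own 6 libraries. In LS513 0 of 9 were called without 2D replicate 1, 2D replicate 2 or 3D replicate 2.

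Across 59 members the mean log2 fold change had a Spearman correlation of 0.43 with the mean level in CPM, where it was -0.21 across 14700 protein-coding genes. With the length of the longest annotated transcript the correlation was -0.36 across the members and -0.35 across protein-coding genes. These are correlations across genes, which are not independent replicates and share the libraries and their scaling, and no test was run on them.

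**Figure D5:**
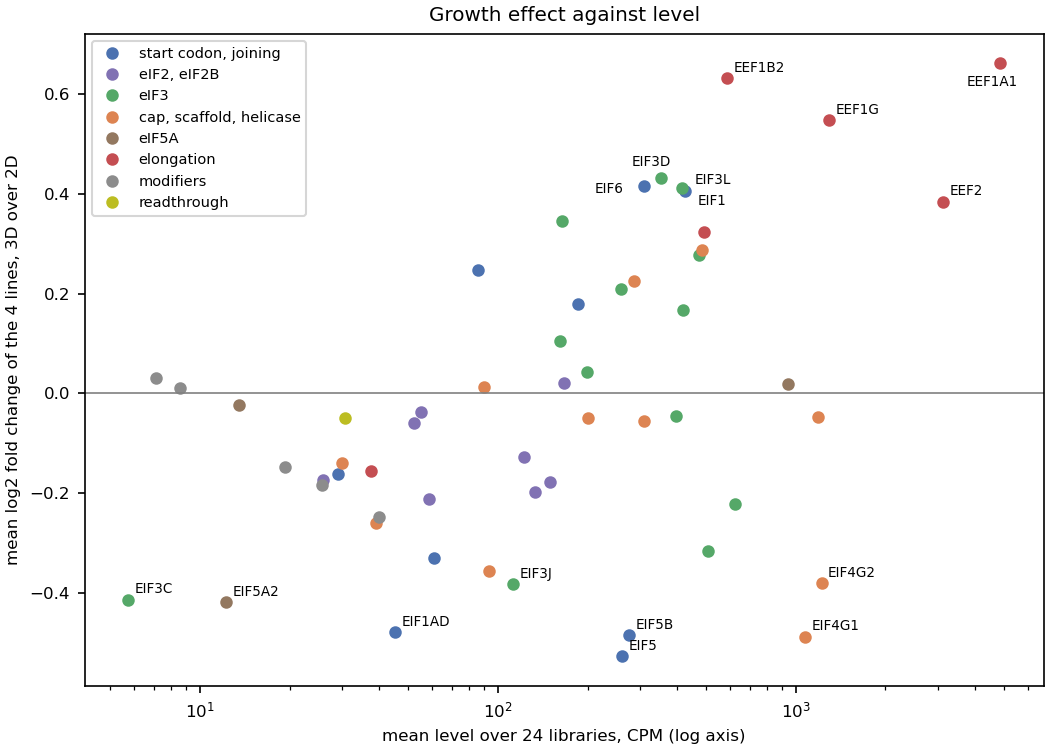
Mean log2 fold change of 3D over 2D in the 4 lines against the mean level over the 24 libraries (CPM, log axis), with 1 point for each member coloured by role. EEF1A1, EEF1B2, EEF1G and EEF2 lie at the upper right, and EIF4G1 and EIF4G2 lie below 0 at a mean of 1076 and 1222 CPM. The CPM axis is not corrected for gene length. Members with a line in which neither group was detected are left out, as is a Y-linked member.

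The growth effect differed between the lines for 12 of 60 members by the interaction test, where 17.1% of all genes tested were called. The count is near that share and says nothing particular about the members. The smallest adjusted p belonged to EIF5B, at 6.8e-05, whose log2 fold change ran from -0.86 in HT29 to -0.20 in LS513. EIF4A2, with an interaction p of 0.0041, was below 0 in HT29 and above 0 in the other 3 lines, and EIF5AL1, at 0.0057, was called in opposite directions in LS513 and HCT116. EIF3E followed at 0.0086, EIF2S2 at 0.012 and EIF3B at 0.013. For EEF1A1, EEF2 and EIF3L the interaction did not pass the test, at adjusted p of 0.36, 0.74 and 0.39, which does not show that the lines responded alike.

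Other genes of the pathway were counted from lists outside the members. Whether the calls of these genes hold under the alternatives is not given, so their stability is unknown, in LS174T and LS513 above all. The 15 regulators are the kinases of eIF2, the 4E-binding proteins and upstream kinases and phosphatase subunits. Of these, 4 rose and 4 fell in HT29 (21.1% and 19.6% of all genes), and 1 rose and 1 fell in LS513 (13.7% and 9.9%). In HCT116 6 rose and 1 fell (16.8% and 12.3%), and in LS174T 4 rose and 3 fell (13.1% and 9.15%). PPP1R15A, a stress-induced subunit that directs a phosphatase to eIF2, rose in all 4 lines, with log2 fold changes of 1.36 (adjusted p = 0.00134) in HT29, 0.86 (adjusted p = 0.0368) in HCT116, 1.56 (adjusted p = 0.000840) in LS513 and 1.59 (adjusted p = 0.00110) in LS174T. MTOR, the kinase that controls TOP mRNA translation, fell in all 4, with log2 fold changes of -0.57 (adjusted p = 0.00131), -0.49 (adjusted p = 0.00741), -0.41 (adjusted p = 0.0193) and -0.72 (adjusted p = 0.000457) in HT29, LS513, HCT116 and LS174T. PDCD4, an inhibitor of eIF4A, and MKNK2, a kinase of eIF4E, rose in HT29, HCT116 and LS174T, and their log2 fold changes in HCT116 were 1.32 (adjusted p = 4.91e-06) and 1.06 (adjusted p = 9.75e-06).

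Of 12 genes of termination, recycling and poly(A) binding, 0 rose and 6 fell in HT29 (21.1% and 19.6% of all genes). In LS513 0 rose and 3 fell (13.7% and 9.9%). In HCT116 0 rose and 7 fell (16.8% and 12.3%), and in LS174T 1 rose and 2 fell (13.1% and 9.15%). The same shares of all genes stand beside the counts of the lists that follow. ETF1, the release factor, ABCE1, which splits ribosomes after termination, HBS1L, which rescues stalled ribosomes, and PABPC4, a poly(A) binding protein, each fell in 3 lines. In HT29 their log2 fold changes were -0.48 (adjusted p = 0.000112), -0.83 (adjusted p = 4.74e-05), -0.36 (adjusted p = 0.00404) and -0.60 (adjusted p = 2.78e-06). Of 9 enzymes that add hypusine to eIF5A or diphthamide to eEF2, 2 rose and 1 fell in HT29, 0 rose and 1 fell in LS513, 1 rose and 0 fell in HCT116, and 1 rose and 1 fell in LS174T. DPH1, which starts diphthamide synthesis, rose in HT29, HCT116 and LS174T, at 0.39, 0.41 and 0.35. Of 9 mitochondrial translation factors, 1 rose and 3 fell in HT29, 0 rose and 1 fell in LS513, 1 rose and 3 fell in HCT116, and 0 rose and 0 fell in LS174T. GFM1, the mitochondrial elongation factor G, fell in HT29, LS513 and HCT116, at -0.51, -0.53 and -0.50.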

How the data were processed

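Polyadenylated RNA of 4 CRC lines was sequenced with a stranded kit. The values that the authors deposited are raw read counts of genes, 1 file a technical replicate, made with Trim Galore 0.4.1, STAR, removal of reads aligned more than once and HTSeq 0.5.3, and not normalized. The submitters' notes name hg19, whereas the paper's methods name an Ensembl release of GRCh38, and no genome coordinate was taken from the count files. The 191 files were summed to 24 libraries, with 8 technical replicates each except for 1 library with 7. Gene positions and lengths come from GENCODE 29 on GRCh38 and promoter sequences from RefSeq.

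Counts were filtered with filterByExpr, scaled by TMM and fitted in edgeR 4.0.16 (R 4.3.3) by the robust quasi-likelihood method on all 24 libraries with 1 coefficient for each of 8 groups. The comparisons were 3D against 2D in each line, their mean, their interaction with line and the level between lines. DESeq2 1.42.0 was an alternative, as were other scaling, no filter, a replicate block, fits of single lines and leaving out each library. In 10 simulations of the HT29 comparison over 19085 to 19120 genes, 28 to 42 of 100 genes changed by 0.5 and 85 to 96 of 100 changed by 1 on the log2 scale were called, with 2 to 11 false calls. No other gene was changed in them, whereas 4094 genes were called higher and 3793 lower in HT29 itself. The adjustment depends on the share of changed genes, so these recoveries do not give the power of the real comparison.

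Members and gene lists were chosen with earlier results of these data known. Named genes are members called in the same direction in at least 3 lines, the 3 largest and 3 smallest called log2 fold changes per line, the 6 smallest interaction p-values, 5 paralog pairs, the 9 TOP factors, the 5 highest per length and members not detected or nearly identical to a copy. The level of 1 Y-linked member, which was counted and tested, is not reported here.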

Additional observations from a re-analysis of the deposited data

Results flagged for a closer look

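For 12 of 60 members the growth effect differed between the 4 lines by the interaction test of edgeR, where 17.1% of all genes were called, and 4 members were called with the replicate block. The count of 12 is near the share of all genes, so it says nothing particular about the members. The 12 had adjusted p-values of 6.8e-05 for EIF5B, 0.0041 for EIF4A2, 0.0057 for EIF5AL1, 0.0086 for EIF3E, 0.012 for EIF2S2, 0.013 for EIF3B, 0.013 for EEF1AKMT2, 0.025 for EEF1AKMT3, 0.029 for EIF5, 0.036 for EIF5A2, 0.036 for EIF3J and 0.039 for EIF4E3. EIF5B, EIF3B, EIF5, EIF5A2 and EIF3J had their most negative log2 fold change in HT29. EIF3J, the loosely bound eIF3 subunit, had 203, 221 and 237 CPM in 2D and 146, 144 and 134 CPM in 3D in HT29, a log2 fold change of -0.65 (SE 0.10, adjusted p = 2.78e-05). Its log2 fold change was -0.19 in LS513, -0.51 in HCT116 and -0.18 in LS174T. EIF3E stood out in LS174T, at 0.58 against 0.014, 0.12 and -0.054 in HT29, LS513 and HCT116, and its value there was 0.41 without replicate 2 of LS174T grown in 3D. The eEF1A methyltransferase gene EEF1AKMT2 had 31.6, 37.01 and 39.1 CPM in 2D and 24.1, 22.3 and 26.7 CPM in 3D in HCT116, a log2 fold change of -0.56 (SE 0.12, adjusted p = 0.00129), and was not called in the other lines. EEF1AKMT3 had log2 fold changes of -0.19 in HT29, 0.28 in HCT116, -0.36 in LS513 and 0.40 in LS174T, none of which was called within its line. EIF4E3 was near the floor in HT29, with at most 0.164 CPM. EIF3J, EEF1AKMT2 and EEF1AKMT3 were named after their values were seen.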

How the results depend on the processing

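Direction held throughout, since no called value of a named gene turned its sign under an alternative. In HT29, 8 higher and 19 lower members became 5 higher with the replicate block, and leaving out 1 library gave 7 to 10 higher and 13 to 16 lower. In LS513, 11 higher became 5 by library totals alone and 2 to 12 without 1 library. The 1 lower member of LS513 became 5 with DESeq2, 18 by library totals alone, 7 in the fit of its 6 libraries, and 0 with all genes of at least 1 count, with the replicate block or with the size factors of DESeq2, and 0 to 8 without 1 library. In HCT116, 14 lower became 27 by library totals alone, and leaving out 1 library gave 3 to 7 higher and 11 to 18 lower. In LS174T the fit of its 6 libraries gave 1 higher and 1 lower, and leaving out 1 library gave 12 to 21 higher and 2 to 7 lower. The interaction called 4 members in place of 12 with the replicate block and 7 to 15 without 1 library, with 7 without replicate 1 of LS513 grown in 2D. The mean effect gave 17 to 18 higher and 22 to 24 lower without 1 library. Of the 5 highest members per length, 4 stayed with the longest transcript as the length. The cause of these shifts was not tested.

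Whether the replicate numbers pair the libraries is not known, and HT29 shares only 2 numbers between growth conditions. The correlations of same-numbered deviations lay between -0.13 and 0.077, and those of differently numbered ones between -0.20 and 0.20. No test was run on these correlations, and weak ones cannot show that the libraries were unpaired. Losses with the replicate block are for the most part not named beside the genes. Over 124 pairs of a named gene and a line, 66 of them called, the block lost 14 calls and added 1, DESeq2 lost 1 and added 7, the size factors of DESeq2 lost 3 and added 2, library totals lost 10 and added 14, no filter lost 10 and added 7, and fits of single lines lost 20 and added 10. With 3 libraries in each group, small changes of the members may be missed. The simulated recovery of 28 to 42 of 100 changes of 0.5 on the log2 scale came from far fewer changed genes than HT29 showed. It therefore does not say how many were missed.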
